A study of Mus musculus with 12 samples.

Results

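The 10 alpha defensin pseudogenes described here were followed through 12 libraries of sorted mouse small-intestinal crypt cells. They were chosen by name from the rows of the count table, because pseudogenes of this family had been seen to be counted in Paneth cells, and they are 10 of the 17 *Defa* pseudogenes of the annotation and 10 of 55414 rows in all. The members are *Defa-ps1*, *Defa-ps3*, *Defa-ps4*, *Defa-ps6*, *Defa-ps7*, *Defa-ps12*, *Defa-ps13*, *Defa-ps14*, *Defa-ps15* and *Defa-ps18*. The group was labelled as transcribed, and the data went against that label for 4 of them, since *Defa-ps12*, *Defa-ps13*, *Defa-ps14* and *Defa-ps15* had 0 counts in all 12 libraries. The annotation calls 7 of the 10 transcribed, and 3 of these 7 are among the members at 0.

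The libraries came from untreated C57BL/6J mice aged 8 to 12 weeks, in 4 groups of 3. WT Paneth and WT non-Paneth cells came from mice with an intact glucocorticoid receptor gene (*Nr3c1*), and GRKO Paneth and GRKO non-Paneth cells from mice that lack *Nr3c1* in cells that express villin, so the deletion covers the whole intestinal epithelium and not Paneth cells alone. The Paneth cell gate was CD24+ cKIT+ with medium to high side scatter and without CD31, CD45 and TER119, while the gate of the non-Paneth cells was not given in the sources used here. Genotypes were read from the sample titles, because the genotype field gives 1 genotype for each cell fraction. For the WT Paneth samples the number of replicates is given beside the mice, but for the other groups no source used here says that the samples were separate mice, and p-values then measure only the spread between these samples. Totals ranged from 11126297 to 15910292 counts. *Nr3c1* averaged 35.9 ± 4.47 CPM (counts in a library scaled to a total of 1e+06, SD, n = 3) in WT and 7.38 ± 4.12 in GRKO Paneth cells, and 148 ± 12.7 and 28.4 ± 8.35 in WT and GRKO non-Paneth cells. The summed level of 8 Paneth cell markers, among them *Lyz1* and *Mmp7*, was 165600 to 241500 CPM in the Paneth libraries and 251 to 1087 CPM in the non-Paneth libraries. In bulk libraries, fewer cells of a type and less RNA per cell cannot be told apart.

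Paneth cells sit at the base of the small-intestinal crypts and secrete antimicrobial proteins from large granules. Alpha defensins, called cryptdins in mice, are made there as a precursor with a signal peptide, an acidic propeptide and a short mature peptide held together by disulfide bonds between cysteines, and matrilysin (*Mmp7*) cleaves the mouse precursors. The genes arose by repeated duplication and lie in a tandem cluster on chromosome 8. A pseudogene is a copy that the annotation holds to have lost the ability to encode the functional protein. It can still be transcribed where its promoter is intact.

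The 6 members with any count all lie inside the cluster of protein-coding *Defa* genes, at chr8:21515557-22225490 in the GRCm39 (mm39) build. *Defa-ps6* is at chr8:21715422-21716263 on the plus strand, *Defa-ps7* at chr8:21722082-21722249 on the minus strand, *Defa-ps18* at chr8:21935085-21936020 and *Defa-ps1* at chr8:22185028-22185869, both on the plus strand. *Defa-ps4* is a single exon at chr8:21609182-21609364 and *Defa-ps3* is at chr8:21568157-21568862, both plus. The 4 members at 0 lie in a stretch of 264.3 kb that ends 1.99 Mb before the first protein-coding *Defa* gene: *Defa-ps12* at chr8:19260478-19262783, *Defa-ps13* at chr8:19350693-19354810, *Defa-ps14* at chr8:19472522-19473460 and *Defa-ps15*, on the minus strand, at chr8:19522909-19524748.

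*Defa-ps6* and *Defa-ps1* are nearly the same sequence, and their exonic bases are shown because counts still told them apart. Of 282 aligned bases, 280 were identical, and the differences were C121G and G174A, with the *Defa-ps6* base first and positions counted from 1 at the first base of the exons. Both have the TGA stop at codon 64 of the 94 codons in the model. *Defa25*, the nearest protein-coding gene of both (270 of 282 aligned columns identical over the exons), has TGC at the aligned codon 63, a cysteine codon. Capitals mark the 2 differing bases and the stop in the pseudogenes, and the aligned codon in the coding sequence of *Defa25*.
Defa-ps6: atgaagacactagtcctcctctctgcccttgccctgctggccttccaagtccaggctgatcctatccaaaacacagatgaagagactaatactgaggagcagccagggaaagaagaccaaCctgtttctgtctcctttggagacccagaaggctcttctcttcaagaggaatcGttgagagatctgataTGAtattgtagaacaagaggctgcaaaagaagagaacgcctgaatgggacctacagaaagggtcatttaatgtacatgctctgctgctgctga
Defa-ps1: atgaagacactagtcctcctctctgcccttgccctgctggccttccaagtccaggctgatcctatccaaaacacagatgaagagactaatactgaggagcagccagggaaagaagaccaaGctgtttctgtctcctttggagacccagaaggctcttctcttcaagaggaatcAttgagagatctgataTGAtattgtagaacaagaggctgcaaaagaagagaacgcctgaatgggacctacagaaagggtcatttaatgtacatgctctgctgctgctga
Defa25: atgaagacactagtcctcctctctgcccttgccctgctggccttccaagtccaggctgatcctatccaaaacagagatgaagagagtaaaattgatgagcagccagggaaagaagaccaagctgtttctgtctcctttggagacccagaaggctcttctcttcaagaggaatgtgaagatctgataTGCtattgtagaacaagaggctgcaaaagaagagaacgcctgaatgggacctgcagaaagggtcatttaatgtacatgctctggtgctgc

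*Defa-ps7* consists of 1 exon that matches the first 168 coding bases of *Defa38* and has no second exon. Of these bases 165 were identical, with C67A, A90T and T126G as the differences (*Defa38* base first, positions from the start codon), and no stop in frame. Capitals mark the differing bases.
Defa-ps7: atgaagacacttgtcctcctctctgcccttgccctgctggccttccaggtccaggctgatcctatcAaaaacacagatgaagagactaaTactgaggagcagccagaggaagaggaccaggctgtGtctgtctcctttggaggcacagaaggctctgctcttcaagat
Defa38: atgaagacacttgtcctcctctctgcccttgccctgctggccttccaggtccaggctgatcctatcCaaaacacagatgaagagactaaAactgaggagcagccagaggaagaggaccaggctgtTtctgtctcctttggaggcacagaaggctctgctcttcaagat

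*Defa-ps18* follows *Defa28* over its whole length, with 369 of 380 aligned columns identical. A run of A in its second exon holds 8 bases where that of *Defa28* holds 7, which shifts the reading frame, and the first stop in frame then comes at codon 113 of the model against the 94 codons that *Defa28* has before its stop. The annotated exons of *Defa-ps18* also leave out 9 bases of *Defa28*, but the genome holds the same 9 bases just before its second exon. The first 60 bases of that exon and the matching stretch of *Defa28* are shown, with the run of A in capitals.
Defa-ps18: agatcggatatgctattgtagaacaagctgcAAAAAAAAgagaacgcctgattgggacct
Defa28: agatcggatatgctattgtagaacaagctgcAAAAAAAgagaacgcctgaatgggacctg

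*Defa-ps4*, the fifth counted member, had 164 of 172 aligned columns identical to *Defa26*. The members that were hardly counted, or not at all, were less like any protein-coding *Defa* gene. *Defa-ps3* has TTG in place of the start codon and a TAG stop at codon 34, and 36.2% of its exonic bases had an identical partner in the nearest coding gene. Bases outside the local alignment count as not identical in this share. This share was 36.1% for *Defa-ps14*, 10.7% for *Defa-ps15*, 6.7% for *Defa-ps12* and 5.9% for *Defa-ps13*, against 89.6% to 99.5% for the 5 counted members. Within the local alignment, *Defa-ps3* had 102 of 153 columns identical to *Defa38* and *Defa-ps14* 151 of 231 to *Defa35*. *Defa-ps15* aligned over 65 columns, *Defa-ps12* over 14 and *Defa-ps13* over 12. *Defa-ps14* and *Defa-ps15* resembled each other (359 of 417 columns), and *Defa-ps12* and *Defa-ps13* aligned to each other over 89 columns, of which 73 were identical.

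The reads that could be counted differ between these genes, because only reads with a single place in the genome were counted. Of all stretches of 100 bases within the exons, 64.3% occur once in the genome for *Defa-ps6* and 64.3% for *Defa-ps1*, 78.6% for *Defa-ps4*, 58.3% for *Defa-ps3* and 30.1% for *Defa-ps18*. Every stretch of *Defa-ps7* and of the 4 members at 0 occurs once. *Defa25* had 4.9% and *Defa28* 22.9%, so that counts of the pseudogenes and of their nearest coding genes were not taken over comparable lengths. *Defa-ps4* also shares 99 of its 183 exonic bases with an annotated exon of *Defa30*, and reads that overlap both genes were not counted. The shared part begins after 73 bases, so every stretch of 100 bases within the exon of *Defa-ps4* overlaps *Defa30* in this annotation. The 78.6% is therefore not the countable share of *Defa-ps4*. In the annotation used here, GENCODE vM39, long noncoding RNA genes on the same strand also cover all exonic bases of *Defa-ps6*, *Defa-ps7*, *Defa-ps18*, *Defa-ps1*, *Defa-ps12* and *Defa-ps13* and 411 of the 418 of *Defa-ps14*. None of these 7 genes has a row in the count table. Of the 7 pseudogenes they cover, 4 were counted and 3 had 0 counts, and the part of such overlaps in the zeros was not tested.

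*Defa-ps6* had the highest level of the 10. In WT Paneth cells its level was 177, 230 and 186 CPM, in GRKO Paneth cells 549, 303 and 268 CPM. The 3 GRKO libraries were all above the 3 WT libraries, and GRKO replicate 1 stood far above all others. How many of all genes separated the groups in this way was not counted, so the separation is given as a description. In non-Paneth cells it was 0.388, 0.487 and 0.130 CPM in WT and 0.952, 0.440 and 0.382 CPM in GRKO.

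*Defa-ps1*, the near copy, was lower and spread less between libraries. It was at 58.3, 54.8 and 53.7 CPM in WT and 69.5, 50.8 and 52.7 CPM in GRKO Paneth cells. The groups overlapped, and GRKO replicate 1 was again the highest library.

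*Defa-ps7*, the exon-1 copy of *Defa38*, had 64.5, 68.7 and 93.6 CPM in WT and 58.8, 78.4 and 78.2 CPM in GRKO Paneth cells. *Defa-ps18* had 65.5, 63.0 and 56.6 CPM in WT and 50.6, 39.0 and 57.3 CPM in GRKO Paneth cells. For both genes the groups overlapped. *Defa-ps4* had 5.49, 6.25 and 8.36 CPM in WT and 10.5, 5.87 and 7.44 CPM in GRKO Paneth cells, also with overlap. *Defa-ps3* had 4, 0 and 1 counts in the WT and 1, 1 and 3 counts in the GRKO Paneth libraries, and none in non-Paneth cells. A count of 0 for *Defa-ps12* to *Defa-ps15* over the 3 WT Paneth libraries allows a level of up to 0.0828 CPM (3 counts of 36212665, counting error only).

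**Figure D1:**
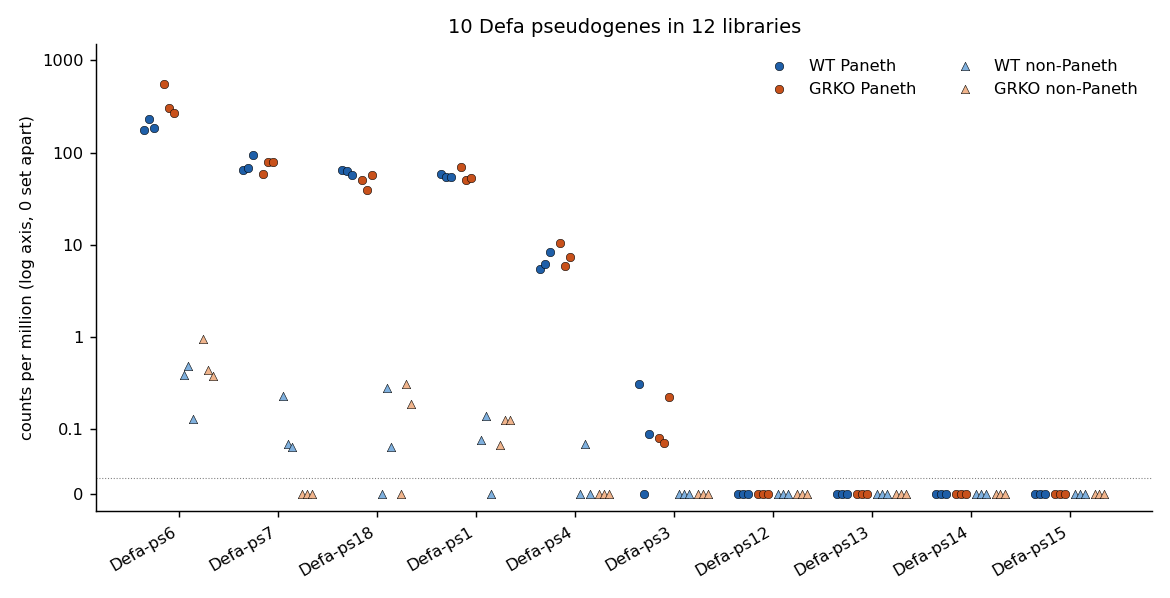
Level of each of the 10 *Defa* pseudogenes in CPM (log axis, with 0 set apart below the dotted line) in each library, 3 points a group. The 5 counted members lie between 5.49 and 549 CPM in all 6 Paneth libraries and below 1 CPM in the 6 non-Paneth libraries, *Defa-ps3* stays below 1 CPM throughout, and 4 members are at 0 in every library.

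Per kilobase of exon, the order in WT Paneth cells was *Defa-ps6* (700.4 ± 99.5 CPM per kb, SD, n = 3), *Defa-ps7* (450 ± 93.5), *Defa-ps1* (197 ± 8.63), *Defa-ps18* (166 ± 12.3), *Defa-ps4* (36.6 ± 8.13) and *Defa-ps3* (0.477 ± 0.573). No 2 neighbours of the first 5 in this order overlapped in their libraries. The order changed when each level was divided by the share of 100-base stretches that occur once: *Defa-ps6* came to 1089 ± 155, *Defa-ps18* to 553 ± 40.8, *Defa-ps7* to 450 ± 93.5 and *Defa-ps1* to 307 ± 13.4. *Defa-ps4* came to 46.6 ± 10.4, but this value does not correct its level, because all its 100-base stretches overlap *Defa30*. The libraries of *Defa-ps18* and *Defa-ps7* then overlapped. The read length was not given in the sources used here, so this share is a rough guide.

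The 10 pseudogenes were a small part of the output of the locus. Summed, they reached 397 ± 25.5 CPM in WT and 560 ± 155 CPM in GRKO Paneth cells. All *Defa* genes and pseudogenes held 30.3% to 31.7% of all counts in WT and 26.6% to 33.9% in GRKO Paneth libraries, and the 10 members made up 0.128% ± 0.00801 and 0.188% ± 0.0256 of those. *Defa-ps6* gave 46.7% to 54.4% of the summed counts of the members in WT and 57.8% to 74.4% in GRKO Paneth libraries.

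**Figure D2:**
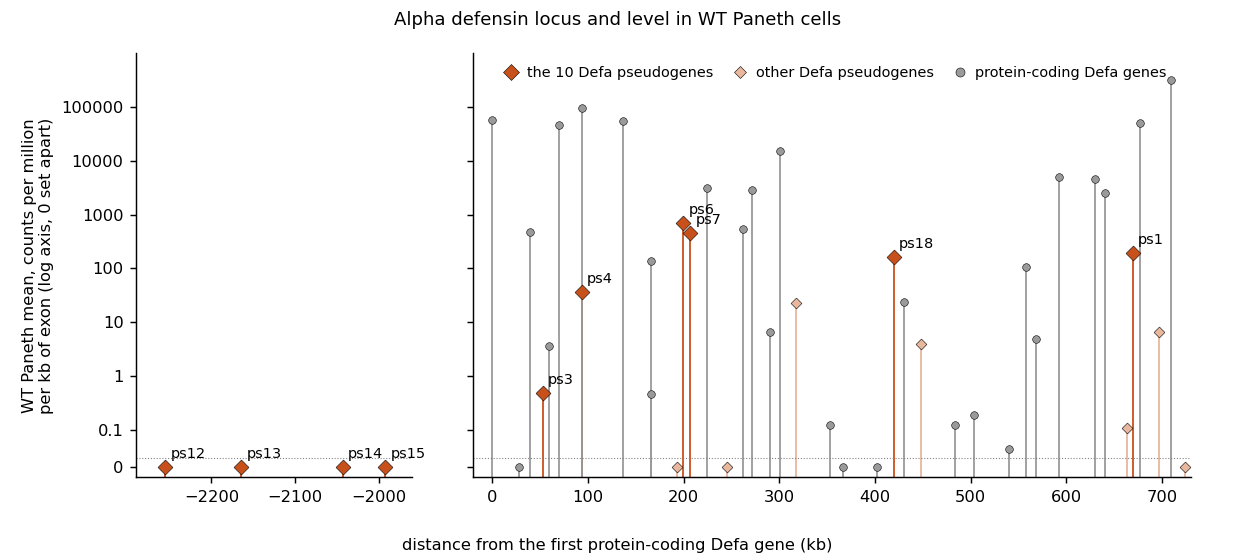
Mean level in WT Paneth cells (CPM per kb of exon, log axis, 0 set apart) against the distance in kb from the first protein-coding *Defa* gene, in 2 panels with the empty stretch left out. The 4 members about 2000 kb before the cluster are at 0, and the counted members, up to 700.4 CPM per kb for *Defa-ps6*, stand among coding genes, some of them far higher.

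The 7 other annotated *Defa* pseudogenes gave the values just outside the group. *Defa-ps16* summed to 136 counts over the 3 WT Paneth libraries, *Defa-ps10* to 40 and *Defa-ps17* to 24. *Defa-ps9* had 1 count there, and *Defa-ps5*, *Defa-ps8* and *Defa-ps11* had 0. The 3 counted ones had 94.2% to 96.5% of their exonic bases identical to *Defa26*, and the other four 16.1% to 37.6% to their nearest coding gene. None of the 100-base stretches of *Defa-ps8* occurs once in the genome, so its 0 cannot be told apart from reads that could not be placed.

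Over all 17 pseudogenes, those with more than 5 counts in WT Paneth cells were those close to a protein-coding gene. These 8 pseudogenes (5 members and 3 others) lay at 89.6% or more identical exonic bases and at 3.91 to 700.4 CPM per kb. The other 9 lay at 37.6% or less and at 0 to 0.477 CPM per kb. Among the first 8, likeness did not order the levels, since *Defa-ps18* at 99.5% was below *Defa-ps6* at 95.7%. This is a description of genes that share ancestry, and counts in Paneth cells were known when the members were chosen. In WT Paneth libraries the counts of *Defa-ps7* averaged 0.00276 of those of *Defa38*, and those of *Defa-ps4* 0.00363 of those of *Defa26*. Those of *Defa-ps18* averaged 1.28 times those of *Defa28*. Whether some counts of the pseudogenes were misplaced reads of coding genes was not tested.

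**Figure D3:**
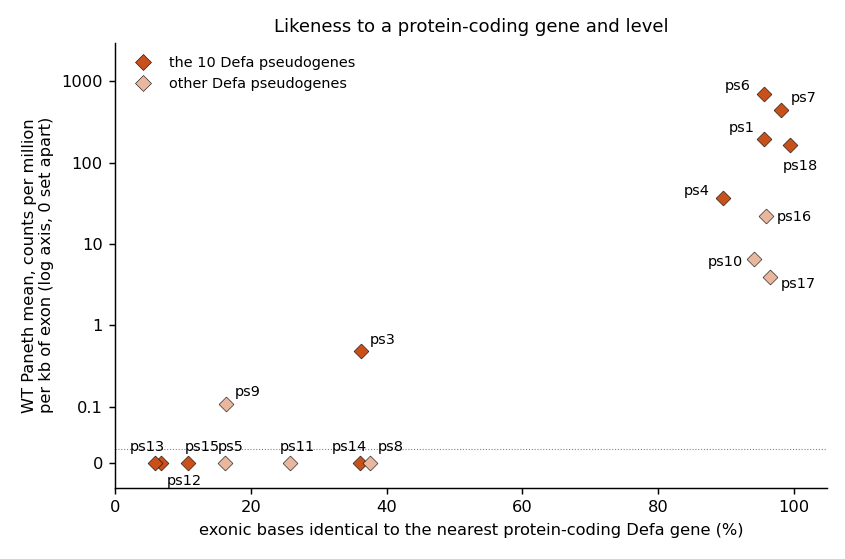
Share of exonic bases identical to the nearest protein-coding *Defa* gene (%) against the mean level in WT Paneth cells (CPM per kb, log axis, 0 set apart), 1 point for each of 17 pseudogenes. Bases outside the local alignment count as not identical. The points form a pair of groups, 8 at 89.6% or more with levels of 3.91 or higher and 9 at 37.6% or less with levels of 0.477 or lower.

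The bases before the start codon also differed among the counted members. Over the 300 bases before the first base of the model, *Defa-ps18* was identical to *Defa28* at every base, *Defa-ps7* 99.7% identical to *Defa38*, *Defa-ps1* 98.0% to *Defa28*, *Defa-ps4* 96.3% to *Defa40* and *Defa-ps6* 92.7% to *Defa17*, a protein-coding cryptdin gene. *Defa-ps6* and *Defa-ps1*, with 2 differences in their exons, were 61.2% identical there. The 5 members without a close coding gene had 49.4% to 54.8%. The letters TATAAA, the core of the TATA box, began 74 bases before the start codon in *Defa-ps6* and *Defa-ps7*, and were absent from the last 100 bases before the start of *Defa-ps1*, *Defa-ps18* and *Defa-ps4*. The bases from 150 to 46 before the start codon are shown with TATAAA in capitals: *Defa-ps6* at chr8:21715272-21715376, *Defa17* at chr8:22145667-22145771, *Defa-ps7* at chr8:21722295-21722399 (minus strand), *Defa-ps1* at chr8:22184878-22184982 and *Defa-ps4* at chr8:21609032-21609136.
Defa-ps6: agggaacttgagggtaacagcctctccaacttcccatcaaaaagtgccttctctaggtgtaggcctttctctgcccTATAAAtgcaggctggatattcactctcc
Defa17: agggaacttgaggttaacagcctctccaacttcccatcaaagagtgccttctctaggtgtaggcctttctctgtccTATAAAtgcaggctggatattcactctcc
Defa-ps7: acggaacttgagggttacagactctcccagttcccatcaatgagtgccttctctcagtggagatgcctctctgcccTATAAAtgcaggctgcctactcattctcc
Defa-ps1: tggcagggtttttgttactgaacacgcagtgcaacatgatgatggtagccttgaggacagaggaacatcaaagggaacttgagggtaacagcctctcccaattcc
Defa-ps4: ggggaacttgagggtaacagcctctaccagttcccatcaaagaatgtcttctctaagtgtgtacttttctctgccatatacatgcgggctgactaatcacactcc

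TATAAA stood within 100 bases before the start codon in 23 of 28 protein-coding *Defa* genes. It was absent there in *Defa25*, *Defa26*, *Defa27*, *Defa28* and *Defa40*. In WT Paneth cells *Defa26* and *Defa40* had 5009 ± 399 and 3161 ± 202 CPM per kb, more than *Defa-ps6* and *Defa-ps7*. *Defa28*, *Defa27* and *Defa25* had 105.4 ± 12.8, 6.65 ± 1.52 and 3.59 ± 0.556 CPM per kb, less than both. Of their 100-base stretches 22.9%, 84.7% and 4.9% occur once, so these levels were not taken over comparable lengths. Whether TATAAA bears on the level was not tested. Searched on both strands over the 300 bases, TATAAA was found in 4 of the 10 members (*Defa-ps1*, *Defa-ps6*, *Defa-ps7* and *Defa-ps18*) and in 25 of 28 coding genes, and 13.6% of 32851 mouse promoter windows of the same length held it (RefSeq, GRCm38.p6). CTTTGAT, a site of the TCF/LEF factors of Wnt signalling, was found in 4 members (*Defa-ps1*, *Defa-ps4*, *Defa-ps6* and *Defa-ps18*) and 23 coding genes, against 3.7% of windows. AGAACA, a short glucocorticoid receptor motif, was found in 1 member (*Defa-ps14*) and 14 coding genes, against 19.0% of windows. Each motif was searched on its own, so matches of different motifs may overlap. The *Defa* windows end just before the start codon or the first base of the pseudogene model, which need not hold for the promoter windows. The *Defa* genes are also related copies, so their matches are not independent.

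In both genotypes the counted members were far lower in non-Paneth than in Paneth cells. Counts of such pseudogenes in Paneth cells were known when the group was drawn up, so this is a description without a test. In WT cells the pooled level of *Defa-ps6* was 602-fold higher in Paneth cells (7158 against 14 counts, counting interval 359 to 1102), that of *Defa-ps7* 638-fold (2711 against 5, 273 to 1968), that of *Defa-ps18* 528-fold (2242 against 5, 226 to 1628) and that of *Defa-ps1* 791-fold (2016 against 3, 270.4 to 3840). *Defa-ps4* had 240 against 1 count, a ratio of 283 (50.2 to 11210). Intervals are 95% exact binomial and cover counting error only.

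In GRKO cells *Defa-ps6* was 632-fold higher in Paneth cells (14711 against 27 counts, 434 to 960), *Defa-ps1* 531-fold (2287 against 5, 227 to 1636) and *Defa-ps18* 283-fold (1948 against 8, 143 to 656). *Defa-ps7* and *Defa-ps4* had 0 counts in all 3 GRKO non-Paneth libraries and were at least 1115-fold and at least 121-fold higher in Paneth cells, where the 0 was set to 3 counts over the 3 libraries.

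The fall from Paneth to non-Paneth cells was set beside that of other Paneth cell transcripts. The summed members stood at 0.166% of their Paneth level in WT non-Paneth cells, all protein-coding *Defa* genes at 0.165%, *Lyz1*, the Paneth cell lysozyme, at 0.163% and *Mmp7* at 0.755%. In GRKO cells these shares were 0.156%, 0.248%, 0.201% and 0.816%. Among the WT non-Paneth libraries, replicate 2 held the most, with 15 counts of the members and 14336 counts of all *Defa*. Without it the WT shares were 0.116% for the members, 0.0866% for the protein-coding genes, 0.0949% for *Lyz1* and 0.530% for *Mmp7*. Whether the few counts came from Paneth cells in the non-Paneth sort was not tested.

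The comparison of GRKO with WT Paneth cells asked whether the loss of the epithelial glucocorticoid receptor moved these transcripts. In all, 5 members (*Defa-ps1*, *Defa-ps4*, *Defa-ps6*, *Defa-ps7* and *Defa-ps18*) passed the filter on low counts, and 0 of the 5 passed the test (edgeR quasi-likelihood, Benjamini-Hochberg adjusted p under 0.05), where 3.22% of 13057 genes did. At an unadjusted edgeR p under 0.05 there was 1 of the 5 members, *Defa-ps6*, beside 3491 of the 13057 genes. DESeq2 called 0 of the 5 members and 1421 of the 13057 genes. The other 5 members had too few counts to be tested.

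*Defa-ps6* had the largest difference of the tested members, a log2 fold change of 0.93 (SE 0.35, edgeR adjusted p = 0.124). Without GRKO Paneth replicate 1 it was 0.41 (adjusted p = 0.245). With no filter on low counts, and 24077 genes tested in place of 13057, its log2 fold change was 0.95 and it was called (adjusted p = 7.33e-07), and under the 19 other alternatives the adjusted p was 0.0701 to 0.338. The log2 fold change was 0.06 for *Defa-ps1* (SE 0.18, adjusted p = 0.864) and 0.25 for *Defa-ps4* (SE 0.32, adjusted p = 0.640). It was -0.10 for *Defa-ps7* (SE 0.16, adjusted p = 0.715) and -0.34 for *Defa-ps18* (SE 0.23, adjusted p = 0.346).

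The ratio of *Defa-ps6* to *Defa-ps1* within a library is free of the scaling between libraries. Its size depends on how much of each gene can be counted, with equal shares of unique 100-base stretches but 28.3% and 14.7% of stretches of 50 bases. The counts of *Defa-ps6* were 3.04, 4.19 and 3.46 times those of *Defa-ps1* in the WT and 7.91, 5.96 and 5.10 times in the GRKO Paneth libraries, so that the groups did not overlap. On the log2 scale the ratio differed by 0.81 (exact two-sided permutation test, p = 0.1, the smallest that 3 against 3 samples allow, adjusted p = 0.25 over 5 ratios). *Defa-ps6* over *Defa17*, its nearest gene by the upstream bases, was 0.102 ± 0.0251 in WT and 0.204 ± 0.0725 in GRKO (exact permutation p = 0.1, adjusted p = 0.25). The size of this ratio compares unlike lengths, since 13.3% of the 100-base stretches of *Defa17* occur once, against 64.3% for *Defa-ps6*.

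The ratio of 3 other members to their nearest coding gene overlapped between the genotypes. *Defa-ps18* over *Defa28* was 1.28 ± 0.0639 in WT and 1.17 ± 0.103 in GRKO (SD, n = 3, exact permutation p = 0.3). *Defa-ps7* was 0.00276 ± 0.000706 of *Defa38* in WT and 0.00258 ± 0.000602 in GRKO (exact permutation p = 0.8). *Defa-ps4* was 0.00363 ± 0.000962 of *Defa26* in WT and 0.00404 ± 0.00033 in GRKO (exact permutation p = 0.6). Adjusted over the 5 ratios, these were 0.5, 0.8 and 0.75.

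**Figure D4:**
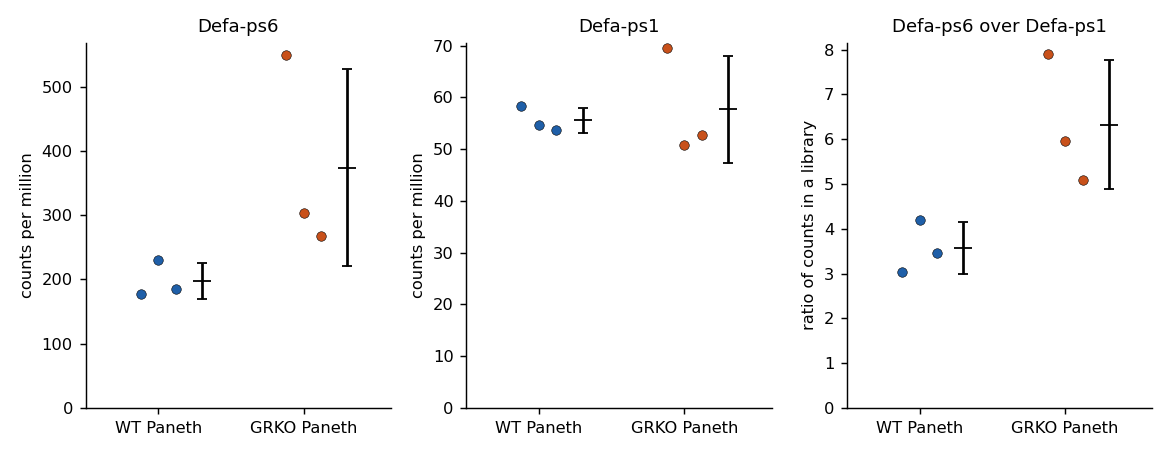
Level (CPM) of *Defa-ps6* and of *Defa-ps1* and the ratio of their counts within each library, in 3 WT and 3 GRKO Paneth libraries (points), with the mean and SD beside them. The GRKO points lie above the WT points for *Defa-ps6* and for the ratio, and overlap with them for *Defa-ps1*.

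Of the 28 protein-coding *Defa* genes, 20 were tested in Paneth cells and 1, *Defa35*, was called, lower in GRKO (log2 fold change -0.88, SE 0.16, edgeR adjusted p = 0.0381). Their median log2 fold change was -0.19, with a range of -0.88 to 0.11, and the median of all genes tested was 0.03. Of 8 Paneth cell markers, 0 were called in either direction. The summed tuft cell markers (*Dclk1*, *Trpm5*, *Pou2f3*, *Gfi1b*) were 99.7 to 242 CPM in the WT and 241 to 654 CPM in the GRKO Paneth libraries, and the summed stem cell markers (*Lgr5*, *Olfm4*, *Ascl2*, *Smoc2*) 5012 to 6502 and 3057 to 4359 CPM. None of these 8 genes was called there, and their part in the values of *Defa-ps6* was not tested.

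**Figure D5:**
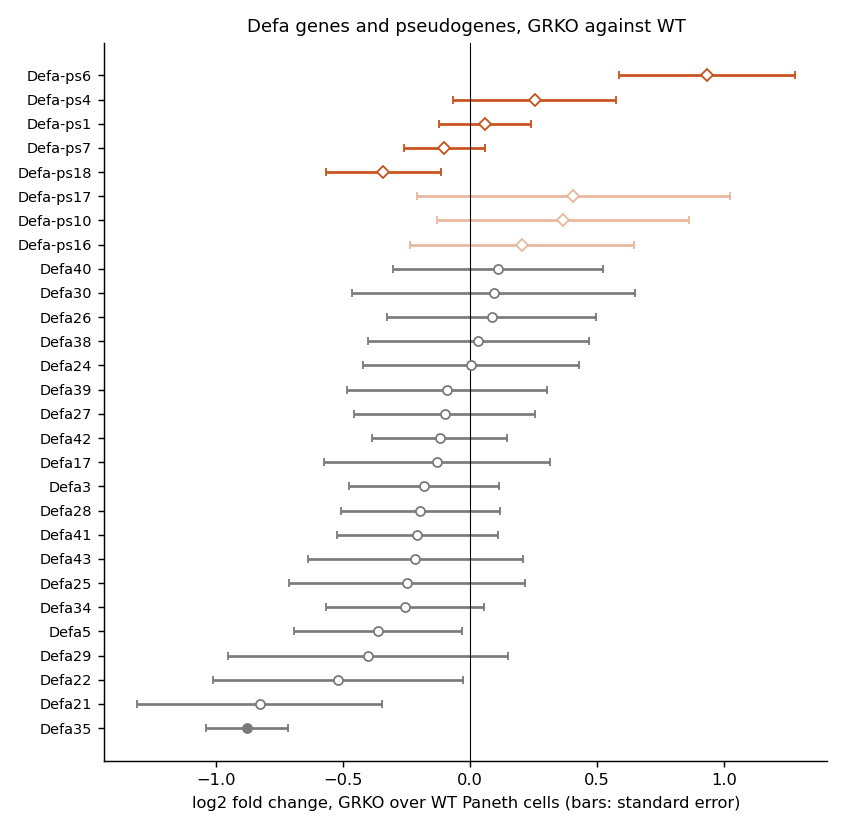
Log2 fold change of GRKO over WT Paneth cells with its standard error for the 5 tested members, 3 other *Defa* pseudogenes and 20 protein-coding *Defa* genes (filled symbol: adjusted p under 0.05). *Defa-ps6* is at 0.93, the 20 coding genes lie between -0.88 and 0.11, and *Defa35* is the filled symbol.

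In non-Paneth cells the members had too few counts to compare the genotypes. The 5 tested members passed the filter through their Paneth counts, and 0 of them passed it with only the 6 non-Paneth libraries. In the fit of all libraries 37.3% of 13057 genes were called between GRKO and WT, and 1 of the 5 members, *Defa-ps7*, fell under the threshold (edgeR adjusted p = 0.0274). Its counts were 3, 1 and 1 in the WT libraries against 0, 0 and 0 in GRKO, it was no longer called without WT non-Paneth replicate 1, and no difference is read from it. The groups of the other 4 tested members overlapped, with 0 to 14 counts a library. Of the marker lists, 4 of 4 tuft cell genes, 3 of 4 stem cell genes, 2 of 2 proliferation genes and 2 of 8 Paneth cell genes were higher in GRKO non-Paneth cells, and 2 of 6 enterocyte and 2 of 6 goblet cell genes were lower. The summed enterocyte markers were 19890 to 23400 CPM in WT and 5296 to 6537 CPM in GRKO. Whether the difference between genotypes itself differed between Paneth and non-Paneth cells was not tested.

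Genes outside the family were compared with the 5 members that had at least 10 counts in every Paneth library, by the correlation of log2(CPM + 0.5) over the 6 Paneth libraries. For *Defa-ps6* the closest of 7822 genes were *Bmi1* (Pearson r = 0.92), *Gsdmc2* (0.92) and *Gpr180* (0.91), and 5 genes exceeded 0.9. For *Defa-ps1* they were *Spink4*, *Timm22* and *Prmt7* (0.92, 0.92 and 0.91, 3 genes above 0.9). For *Defa-ps7* they were *Idh2*, *Nkapd1* and *Rnf139* (0.99 each, 43 genes above 0.9), and for *Defa-ps18* *Rbm3*, *Hopx* and *Spcs1* (0.99, 0.98 and 0.97, 47 genes). For *Defa-ps4* *Sgms1* came first at 0.87, and none exceeded 0.9. The 6 points share their libraries and 2 genotypes, and the highest of 7822 values over 6 points is given as a description. No gene was among the closest 3 of more than 1 member.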

How the data were processed

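RNA from sorted Paneth and non-Paneth crypt cells was made into stranded TruSeq libraries and sequenced as single reads. Per the labels and the study's methods, the authors trimmed reads with Trimmomatic 0.39, aligned them with STAR 2.7.10a to mm39 with an annotation called gencode v28, and deposited the raw count of each gene, in which STAR keeps reads with 1 place in the genome that overlap 1 gene. The sources used here give neither the strand setting nor the read length. The table held 12 columns, 1 for each sample, and 55414 genes, and GENCODE vM39 gave a symbol for 54749 of them and none for 665. The release may differ from that of the authors.

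The members and the lists were chosen with earlier results of these data known. The text names the members, the other *Defa* pseudogenes, the coding genes nearest to a member, *Nr3c1* and, for each member with at least 10 counts in every Paneth library, the 3 genes of at least 10 CPM with the most similar pattern. *Defa17* was added to the ratios after its upstream likeness was seen, and *Defa40* and *Defa27* were named after their values were seen.

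All 12 libraries were fitted together by group in edgeR 4.0.16 (R 4.3.3) with filterByExpr, TMM scaling and the quasi-likelihood test, and DESeq2 1.42.0 was an alternative. CPM are counts scaled to a library total of 1e+06 (totals 11126297 to 15910292), and the total sets the precision of low counts. Single values were compared by exact permutation tests, two-sided. Exonic sequences came from GRCm39 and were aligned locally in Biopython 1.88 (match 2, mismatch -3, gap opening -5, extension -2). Replicate numbers did not pair the genotypes: the correlations of deviations between same-numbered libraries were -0.098 to 0.156 in Paneth and -0.094 to 0.166 in non-Paneth cells. Between the cell fractions of a genotype they were 0.229 to 0.349 in WT and 0.013 to 0.465 in GRKO. No source used here says whether the fractions share mice, and no term for this was fitted. No library was left out. Within each group no library was a duplicate of another, and pairs across groups were not compared.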

Additional observations from a re-analysis of the deposited data

How the results depend on the processing

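In Paneth cells 420 genes were called between GRKO and WT, and this number moved widely: 1421 with DESeq2, 2 with library totals only, 1780 with no filter on low counts, 0 with only the 6 Paneth libraries (edgeR), and 0 to 1618 when 1 library was left out (fewest when GRKO Paneth replicate 2 was dropped, most when it was replicate 1). The replicate block gave 977 genes, and same-numbered samples of the 2 genotypes share only a number. Members called stayed at 0 of those tested in Paneth cells, except 1 (*Defa-ps6*) with no filter on low counts. The replicate block gave 0 members in Paneth and 1 in non-Paneth cells. In non-Paneth cells 1 member (*Defa-ps7*) was called, and 0 to 1 with 1 library left out. No value could be had there with only the 6 libraries or with at least 10 counts in every library of 1 group, because no member passed those filters. With 1 library left out, the log2 fold change in Paneth cells was -0.21 to 0.20 for *Defa-ps1*, -0.11 to 0.48 for *Defa-ps4* and -0.26 to 0.058 for *Defa-ps7*, so that these signs turned. The summed level of the members rose from 397 to 539 CPM in WT and from 560 to 765 CPM in GRKO Paneth cells on TMM-scaled totals, and to 683 and 915 CPM when counts were divided by the share of unique 100-base stretches. Their share of all *Defa* counts then became 0.165% and 0.245%. These divided values include *Defa-ps4*, for which the share of unique stretches is not the countable share. With counts of 0 to 14 a library, the depth shows no differences among members in non-Paneth cells short of large ones. Leaving out each non-Paneth library for the shares of the Paneth level was chosen after seeing the data.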
